A study of Mus musculus with 24 samples.

Results

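Microglia of the right retina (OD) were compared with microglia of the left retina (OS) within single mice. Every animal whose titles give both eyes was taken, which left 18 of the 24 retinas of the series and 9 of its 15 animals. The study sequenced RNA of resident retinal microglia in the DBA/2J model of glaucoma, with 1 library for each retina and 100 to 600 sorted cells behind it. Cells were sorted for CD11b and FCRLS and against Ly6c, a gate that keeps resident microglia and leaves out recruited monocytes. The affected group was 12-month DBA/2J mice, genotype Gpnmb-/- Tyrp1b-/-, with 10 retinas of animals 1 to 5. The control strain was 12-month DBA/2J Gpnmb+ mice, genotype Gpnmb+/+ Tyrp1b-/-, with 8 retinas of animals 1, 2, 3 and 5. Both strains carry the Tyrp1 mutation, and no animal was treated. The labels grade every DBA/2J retina by disease stage: OD was moderate and OS severe in animal 1, both eyes were moderate in animal 2, severe in animal 3 and mild in animal 4, and OD was mild and OS moderate in animal 5. Gpnmb+ retinas carry no grade.

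DBA/2J mice shed iris pigment as they age, eye pressure rises, and retinal ganglion cells are lost, often at a different pace in each eye of an animal. Microglia are the resident macrophages of the retina. In healthy tissue they express a homeostatic set of genes such as P2ry12 and Tmem119, and in neurodegeneration they can take on the MGnD state, in which Apoe is raised and homeostatic genes are lowered. The eyes of an animal share its genome, age and housing, so a difference between them shows how much of the variation lies within an animal.

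Depth set limits before any comparison. The total count per retina, rounded expected counts per gene, ranged from 977873 to 20081047, and OS had the larger total in 7 of 9 animals and more detected genes in 6 of 9. Several libraries stood apart. The OD retina of Gpnmb+ animal 2 had 977873 counts and 3466 genes, and its OS retina had 3737642 counts and 7134 genes. The OS retina of DBA/2J animal 4 had 1706745 counts, also under 20% of the median of all 24 retinas, and 10693 genes. Both retinas of Gpnmb+ animal 1 and the OD retina of Gpnmb+ animal 3 had fewer than 10000 genes. A single ribosomal RNA gene, CT010467.1, held 13.7% of the counts in the OS retina of DBA/2J animal 4, 45.7% in the OS retina of Gpnmb+ animal 1, and 20.4% to 33.1% in the other 16 retinas. Levels below are counts scaled to the library total and given as CPM, and that total includes CT010467.1. Differences between eyes are given as OD minus OS in log2 CPM with TMM scaling, a prior count of 2 and 9538 genes kept by a filter on low counts.

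The gene that separates the strains, Gpnmb, a membrane glycoprotein gene, had 0 counts in all 10 DBA/2J retinas and in 7 of the 8 Gpnmb+ retinas. The OS retina of Gpnmb+ animal 5 had 30.9 CPM of Gpnmb, against 0 in its OD retina, where a count of 0 allows up to 0.214 CPM. Microglial markers were high throughout: Csf1r, the growth factor receptor on which microglia depend, was at 2957 to 8031 CPM in DBA/2J OD retinas and at 2765 to 8091 CPM in DBA/2J OS retinas, and at 845 to 6755.5 CPM in Gpnmb+ retinas. Fcrls, the gene of the protein used for the sort, was low and uneven, at 0 to 105.6 CPM over the DBA/2J and Gpnmb+ retinas and at 0 in 6 of 18. In bulk samples such as these, fewer cells of a type and less RNA per cell cannot be told apart.

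X- and Y-linked genes are fixed by the animal and not by the eye. They served as a check that both retinas of a pair came from mice of the same sex. Eyes exchanged between animals of the same sex would pass this check. Xist, the RNA of the inactive X chromosome (chromosome X, 103460366 to 103483254, GRCm38), was 503.5, 1147 and 1669 CPM in the OD retinas of DBA/2J animals 1, 2 and 3, against 1147, 1238 and 1546 CPM in their OS retinas. It was 0.161 CPM in OD and 0 in OS of DBA/2J animal 4, and 0 in both eyes of animal 5. The Y-linked Eif2s3y, a translation factor gene, was 68.5 and 145 CPM in the OD retinas of DBA/2J animals 4 and 5, against 56.8 and 62.1 CPM in their OS retinas, and at most 0.082 CPM in animals 1 to 3. Each DBA/2J pair was thus matched in sex by both genes, which does not tell animals 1 to 3, or animals 4 and 5, from each other. In Gpnmb+ mice Xist was 1046, 553 and 2987 CPM in the OD retinas of animals 1, 2 and 3, against 286, 1855 and 2178 CPM in their OS retinas. Gpnmb+ animal 5 stood apart, with 124.5 CPM of Xist in OD against 0 in OS, while Eif2s3y was 111 CPM in OD and 102 CPM in OS. The source of this Xist signal was not tested, and it decided 2 calls given below.

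No gene was called as different between right and left retinas by the main test. The spread it used was wide, with a biological coefficient of variation of 1.33 between the eyes of an animal. Large differences could therefore go uncalled. That figure comes from the mean dispersion over all genes tested, and the eye differences of highly expressed genes were smaller in most animals, as given below. The paired test, edgeR's quasi-likelihood test with the animal as a block and Benjamini-Hochberg adjustment, called 0 of 9538 genes at an adjusted p under 0.05 over the 9 animals. At an unadjusted p under 0.05 it listed 151 genes (1.58%), of which 18 (0.189%) were higher and 133 (1.39%) lower in OD. DESeq2 called 162 genes, 13 higher and 149 lower in OD, and limma voom called 0. Within DBA/2J mice edgeR called 0 genes and listed 69 (0.723%) at an unadjusted p under 0.05, 10 higher (0.105%) and 59 lower (0.619%) in OD, against 93 called by DESeq2 and 0 by limma voom. Within Gpnmb+ mice edgeR called 0 genes and listed 345 (3.62%), 39 higher (0.409%) and 306 lower (3.21%) in OD, against 614 called by DESeq2 and 0 by limma voom. The median log2 OD over OS of all genes was -0.10 in DBA/2J and -0.63 in Gpnmb+ animals, and -0.03 in Gpnmb+ once animals with a retina under 10000 genes were left out. Without those animals edgeR called 1 gene in Gpnmb+, Xist, and that fit and median rest on animal 5, the 1 Gpnmb+ animal then left.

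Golga5, Rsad1, Btd, Ppa2 and Cops4 were among the genes with the smallest p-values, taken from genes that average log2 CPM 4 or more. Golga5, a golgin of the Golgi apparatus, was 13.2, 2.30, 0, 0 and 19.6 CPM in the OD retinas of DBA/2J animals 1 to 5, against 32.6, 46.4, 16.1, 9.37 and 42.3 CPM in the OS retinas. In the Gpnmb+ animals Golga5 was 8.17, 4.09, 0 and 47.5 CPM in OD, against 109, 193, 4.87 and 83.7 CPM in OS. OD was the lower eye in 9 of 9 animals, and the fitted log2 change was -4.37 ± 1.31 (SE), yet its adjusted p was 0.9999 by edgeR's quasi-likelihood test. Rsad1, a gene of the radical SAM family, was likewise lower in OD in 9 of 9 animals (log2 -6.21 ± 1.90). Btd, the biotin-recycling enzyme biotinidase, and Ppa2, a mitochondrial pyrophosphatase, were lower in OD in 7 of 9 animals each. In the other direction Cops4, a subunit of the COP9 signalosome, was 192.8, 119.8, 147.2, 165.6 and 49.4 CPM in DBA/2J OD retinas, against 83.8, 55.3, 57.3, 90.2 and 177.7 CPM in the OS retinas. Its Gpnmb+ values were 269.4, 551.2, 192.7 and 208.6 CPM in OD, against 15.9, 22.2, 109.2 and 137.4 CPM in OS, so that OD was higher in 8 of 9 animals. The log2 change of Cops4 was 1.37 ± 0.60, with an adjusted p of 0.9999 by the same test. Among the 1295 genes that average log2 CPM 6 or more, 1 was past an unadjusted p of 0.05. No member of the microglial, metabolic or other cell lists was past an unadjusted p of 0.05 over the 9 animals, except the pigment epithelium channel gene Best1 (log2 3.65 ± 1.60), at most 29.5 CPM in any retina. Of the 12 genes listed for the left-right body axis, 1 passed the filter, the calcium channel gene Pkd2.

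**Figure D1:**
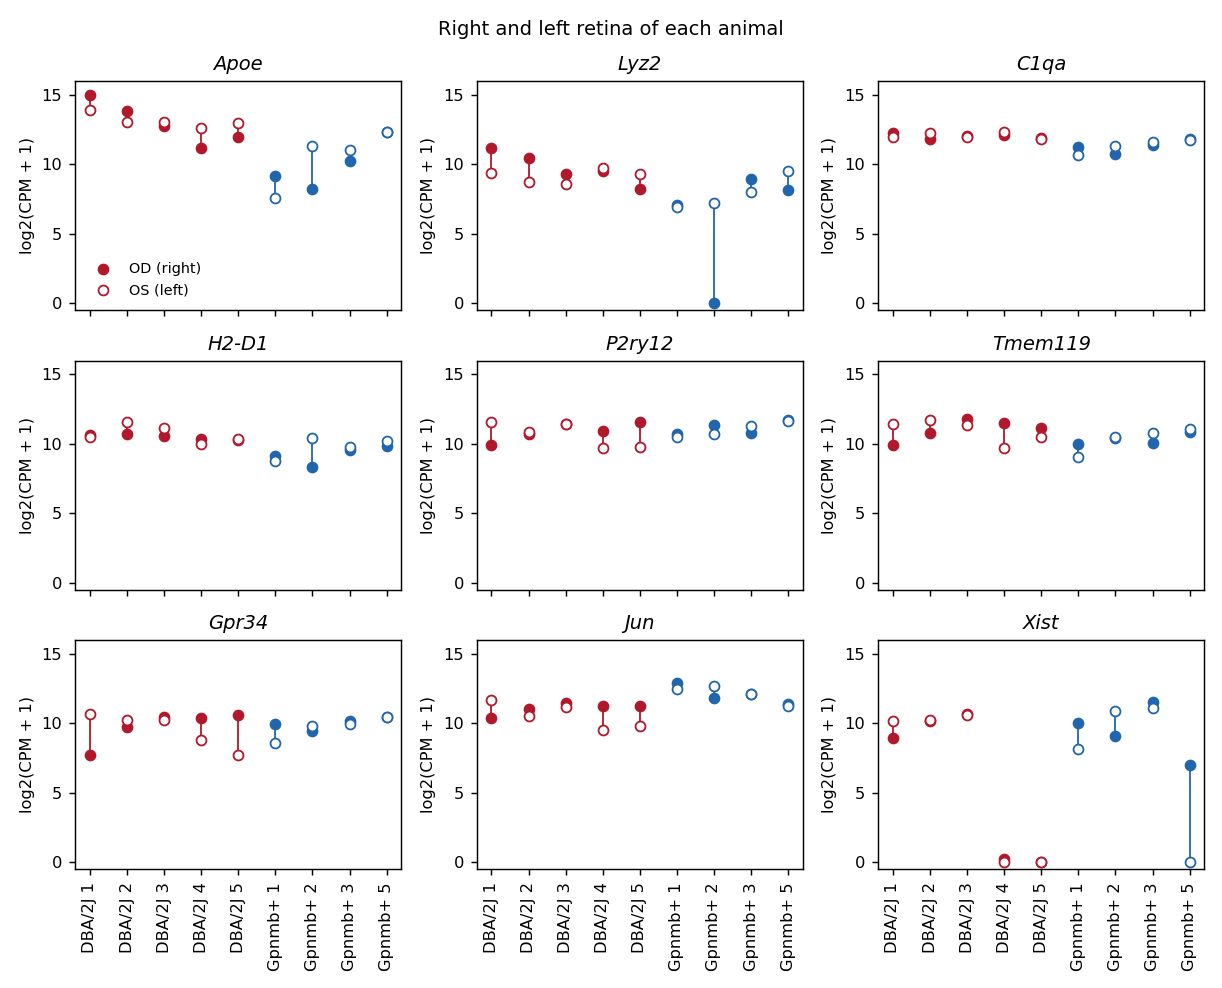
Level of 9 genes in the right (OD, filled) and left (OS, open) retina of each animal, on a log2(CPM + 1) axis that is the same in every panel. Lines join the eyes of an animal, with DBA/2J in red and Gpnmb+ in blue; C1qa pairs lie close together in DBA/2J, P2ry12, Gpr34 and Jun pairs lie apart in DBA/2J animals 1, 4 and 5, and Xist separates the animals.

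Microglial genes showed no common direction. Apoe, the gene of a lipid-carrying apolipoprotein and a marker of the MGnD state (chromosome 7, 19696109 to 19699188), was 32974, 14727.5, 6870, 2367 and 4031 CPM in the OD retinas of DBA/2J animals 1 to 5, against 15550, 8420.5, 8563, 6410 and 8056 CPM in the OS retinas. OD was higher in animals 1 and 2 and lower in 3, 4 and 5. In Gpnmb+ animals Apoe was 561, 294.5, 1234 and 5054 CPM in OD, against 187, 2604, 2095 and 5247.5 CPM in OS. Over the 9 animals its log2 change was -0.33 ± 0.39 (SE), smaller than its standard error. P2ry12, a purine receptor of homeostatic microglia, was 958, 1676, 2771, 1951 and 2985 CPM in DBA/2J OD retinas, against 2992, 1895, 2714, 852.5 and 894 CPM in OS. Its eyes were level in animals 2 and 3 and apart in 1, 4 and 5, with the higher eye OS in animal 1 and OD in animals 4 and 5. In Gpnmb+ animals P2ry12 was 1716, 2671, 1733 and 3354 CPM in OD and 1452, 1654, 2441 and 3181 CPM in OS, closer pairs than those of DBA/2J animals 1, 4 and 5.

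C1qa, which codes for part of complement C1q, was among the genes with the closest eyes. It was 4895, 3587, 4216, 4398 and 3844 CPM in DBA/2J OD retinas, against 4030, 4870, 3952, 5223 and 3603 CPM in OS. In Gpnmb+ it was 2401, 1701, 2669 and 3602 CPM in OD, against 1624, 2548, 3093 and 3437 CPM in OS. The median absolute difference of C1qa between the eyes of an animal was 0.18 log2 CPM in DBA/2J and 0.16 in Gpnmb+, against 0.26 and 0.27 between an OD and an OS retina of different animals. Its log2 change was -0.09 ± 0.20. Trem2, a lipid receptor of microglia, had a median difference of 0.22 log2 CPM between the eyes of DBA/2J animals, against 0.40 between animals. H2-D1, an MHC class I heavy chain, had 0.48 against 0.62.

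The overall distance between the eyes of an animal was then set against the distance between animals. It was measured as the median absolute log2 CPM difference over those 1295 well expressed genes. In DBA/2J the distance between OD and OS was 0.877, 0.455, 0.490, 0.761 and 0.700 in animals 1 to 5, a mean of 0.657 ± 0.180 (SD, n = 5). An OD and an OS retina of different DBA/2J animals lay 0.648 ± 0.194 apart (SD, 20 pairs). In DBA/2J these means differed by less than the spread between pairs, with a ratio of 1.01 and a one-sided exact permutation p of 0.467 over all 120 ways to pair the eyes, of which the smallest possible p is 0.00833. In Gpnmb+ the distances were 0.761, 2.13, 0.549 and 0.319 in animals 1, 2, 3 and 5, a mean of 0.940 ± 0.814 (SD, n = 4), against 1.09 ± 0.635 between animals (SD, 12 pairs). The Gpnmb+ ratio was 0.861 with a one-sided exact permutation p of 0.0417, the smallest that 24 pairings can give. The mean of both ratios was 0.938 (one-sided exact permutation, p = 0.163). Leaving out DBA/2J animal 1 brought the DBA/2J ratio to 0.940 (one-sided exact permutation, p = 0.292) and the joint ratio to 0.910 (one-sided exact permutation, p = 0.0313). With any other animal left out the joint ratio was 0.911 to 0.965 (one-sided exact permutation, p = 0.114 to 0.302). Animal 1 had the largest eye distance in DBA/2J, so leaving it out lowers the mean eye distance. Nothing is read from that setting alone. Without any 1 of the 4 animals the exact permutation test in Gpnmb+ cannot go below p = 0.167.

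**Figure D2:**
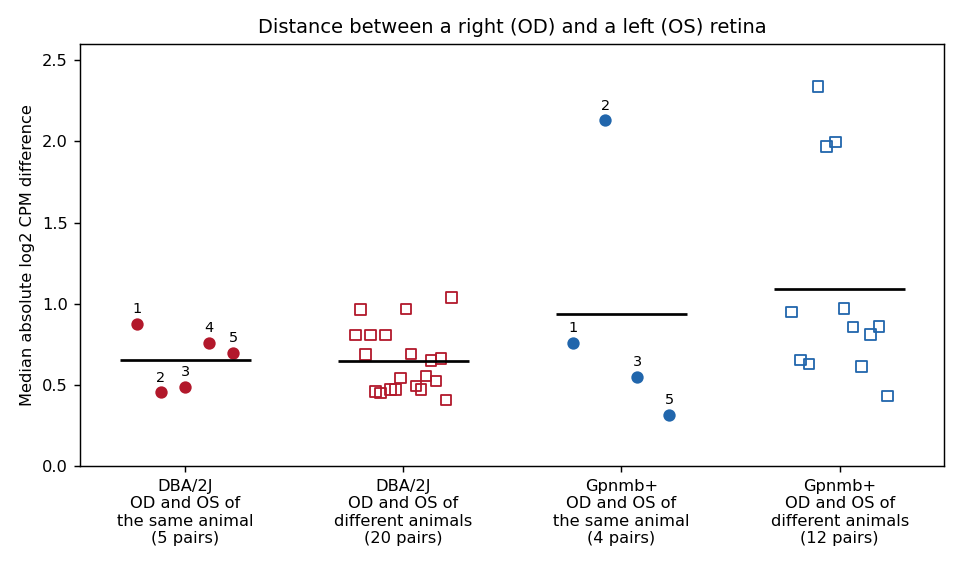
Median absolute log2 CPM difference between a right and a left retina over 1295 genes, for eyes of the same animal (filled circles, numbered by animal) and of different animals (open squares), with the mean of each set as a black line. The DBA/2J lines stand at 0.657 and 0.648, and the Gpnmb+ lines at 0.940 and 1.09; Gpnmb+ animal 2, at 2.13, is the pair with the shallowest library.

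The Spearman correlation across genes between the eyes of an animal averaged 0.652 in DBA/2J, against 0.658 between animals, and 0.600 in Gpnmb+, against 0.497 between animals. The nearest OS retina was the animal's own for 0 of 5 DBA/2J OD retinas and for 2 of 4 Gpnmb+ OD retinas. The nearest OD retina was the animal's own for 1 of 5 DBA/2J and 2 of 4 Gpnmb+ OS retinas. The share of a gene's variance that lies between animals, the intraclass correlation, had a median of -0.003 in DBA/2J and 0.12 in Gpnmb+, where a value at or below 0 means that eyes vary as much as animals. Mean eye distances of the genotypes differed by -0.283, DBA/2J minus Gpnmb+ (two-sided exact permutation of 5 against 4 animals, p = 0.675). Without Gpnmb+ animal 2 the difference was 0.0850 (two-sided exact permutation, p = 0.589), so its sign rests on that animal.

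The eye difference was smaller in the genes of highest level than in those of lowest level in 8 of 9 animals, all but Gpnmb+ animal 2, though not at every step between: in Gpnmb+ animal 1 it was 1.98 log2 CPM under a mean of 2 and 3.05 between 2 and 4. In DBA/2J animal 1 the median absolute difference was 2.59 log2 CPM for genes with a mean log2 CPM under 2, and 0.84 for those at 10 and over. In Gpnmb+ animal 5, the animal with the closest eyes, the same values were 1.63 and 0.12. DBA/2J animal 3 went down to 0.27 for genes at 10 and over, while animal 1 stayed near 0.84 to 0.92 from a mean log2 CPM of 6 upwards. Gpnmb+ animal 2 peaked at 4.85 for genes between 4 and 6, where many genes had 0 counts in the OD retina. Genes with at least 50 CPM in one eye and 0 counts in the other made up 1.67% to 2.77% of the genes at that level in DBA/2J animals. They made up 14.2%, 54.4%, 6.47% and 0.53% in Gpnmb+ animals 1, 2, 3 and 5. Of these genes 2732 were found in 1 animal, 274 in 2, 25 in 3, and 1, the coenzyme Q gene Coq10b, in 4 animals.

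**Figure D3:**
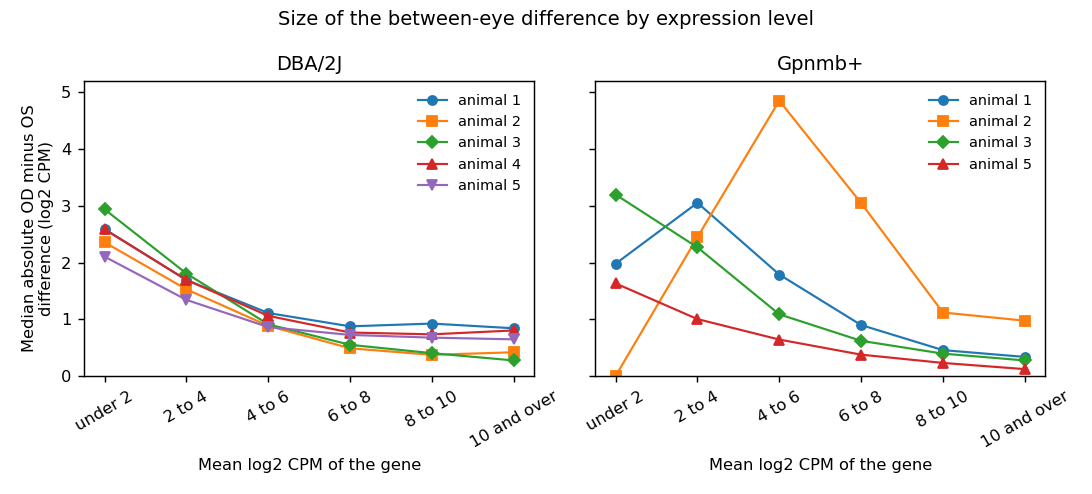
Median absolute OD minus OS difference (log2 CPM) for genes grouped by their mean log2 CPM, with a line for each animal. Differences are smaller in the highest than in the lowest group in the DBA/2J animals, where animal 1 stays at 0.84 and animal 3 reaches 0.27 in the highest group; Gpnmb+ animal 2 peaks at 4.85 between 4 and 6.

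Gene by gene, no difference in the size of the eye gap between genotypes was called. A limma test of the absolute OD minus OS difference, 5 DBA/2J against 4 Gpnmb+ animals, called 0 of 9538 genes and listed 559 (5.86%) at an unadjusted p under 0.05, of which 148 had the larger gap in DBA/2J and 411 the smaller. Without Gpnmb+ animal 5, the closest pair, 20 genes were called. The median difference in gap of all genes, DBA/2J minus Gpnmb+, was -0.53 log2 CPM, and -0.10 without Gpnmb+ animal 2. Recoverin (Rcvrn), a calcium sensor of photoreceptors, was among the genes listed with the larger gap in DBA/2J: it was 217, 108.5, 0, 0 and 25.7 CPM in OD, against 0, 0, 12.6, 53.3 and 79.1 CPM in OS of animals 1 to 5. For the signed eye difference, the interaction of eye and genotype had 0 edgeR calls, 213 by DESeq2 and 0 by limma voom. In edgeR 224 genes (2.35%) were at an unadjusted p under 0.05, 182 (1.91%) positive and 42 (0.44%) negative.

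Groups of genes differed in how far the eyes of an animal lay apart relative to the animals. Over all 9538 genes the median gap in DBA/2J was 1.301 log2 CPM between the eyes and 1.335 between animals, and 47.3% of genes were closer between the eyes. Complement genes had 0.40 between the eyes against 0.64 between animals, with 7 of 9 closer between the eyes. The 29 MGnD genes tested were at 0.78 against 0.83. Ribosomal protein genes had the reverse order, 0.94 between the eyes of a DBA/2J animal against 0.61 between animals, and 5 of 36 were closer between the eyes. The 12 mitochondrially encoded genes had 0.75 against 0.49, with 1 closer between the eyes, and homeostatic microglia genes had 0.70 against 0.53. In Gpnmb+ animals 68.5% of all genes were closer between the eyes, with medians of 1.64 and 3.02. There, ribosomal protein genes had 0.42 against 0.71, with 31 of 36 closer between the eyes. Immediate early and heat shock genes, which respond within minutes to handling and stress, had 0.47 against 1.33 with 23 of 24 closer in Gpnmb+, and 0.88 against 0.81 with 9 of 24 closer in DBA/2J. These differences between lists and genotypes were not tested.

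**Figure D4:**
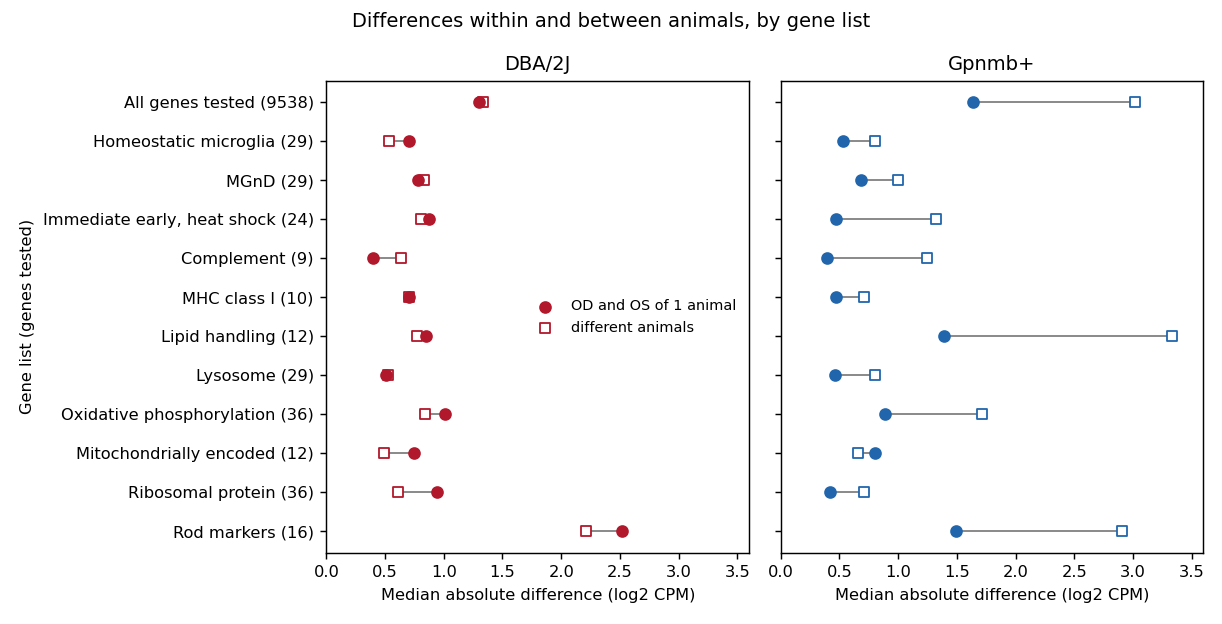
Median absolute difference (log2 CPM) between OD and OS of an animal (filled circles) and between an OD and an OS retina of different animals (open squares), for each gene list with its number of genes tested. In DBA/2J the circle lies right of the square for ribosomal protein genes (0.94 and 0.61) and left of it for complement genes (0.40 and 0.64); in Gpnmb+ it lies left for every list shown except the mitochondrially encoded genes.

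Over the 1295 well expressed genes the eyes of DBA/2J animals 1, 4 and 5 lay farther apart than those of animals 2 and 3. Over all genes past the filter the order was another, with distances of 1.43, 1.14, 1.31, 1.37 and 1.13 in animals 1 to 5. Ribosomal protein, oxidative phosphorylation and immediate early genes differed most in animals 1, 4 and 5, a grouping read from these same values. Summed ribosomal protein expression was 24247 CPM in OD and 9598 CPM in OS of animal 1, 12267 and 24537 CPM in animal 4, and 7492 and 15352 CPM in animal 5. The log2 ratio was 1.34 in animal 1 and -1.03 in animal 5, against 0.09 and 0.07 in animals 2 and 3 and 0.04 to 0.47 in the Gpnmb+ animals. Nuclear genes of oxidative phosphorylation, the mitochondrial respiratory chain, had log2 ratios of 1.13, 0.03, 0.10, -0.85 and -0.99 in DBA/2J animals 1 to 5. Immediate early and heat shock genes ran the other way, at -1.24, -0.36, 0.28, 0.85 and 1.15, and lysosomal genes at -0.44, -0.44, 0.14, 0.77 and 0.53. The gene-wise medians with TMM scaling had the same signs in animals 1, 4 and 5, at 1.63, -0.99 and -1.11 for ribosomal protein genes and -1.07, 0.75 and 1.18 for immediate early genes, and RLE scaling changed no sign of these. In Gpnmb+ animals 1, 2, 3 and 5 the ribosomal medians were -0.47, -0.32, -0.11 and 0.11, so that 3 of 4 differ in sign from the sums, and animal 2 was at 0.11 with RLE scaling. The lysosomal ratio of animal 2 was no smaller than that of animal 1. In the OD against OS test none of the 36 ribosomal, 36 oxidative phosphorylation, 24 immediate early or 29 lysosomal genes was past an unadjusted p of 0.05; with 1.58% of all genes past it, nothing is read from that count.

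**Figure D5:**
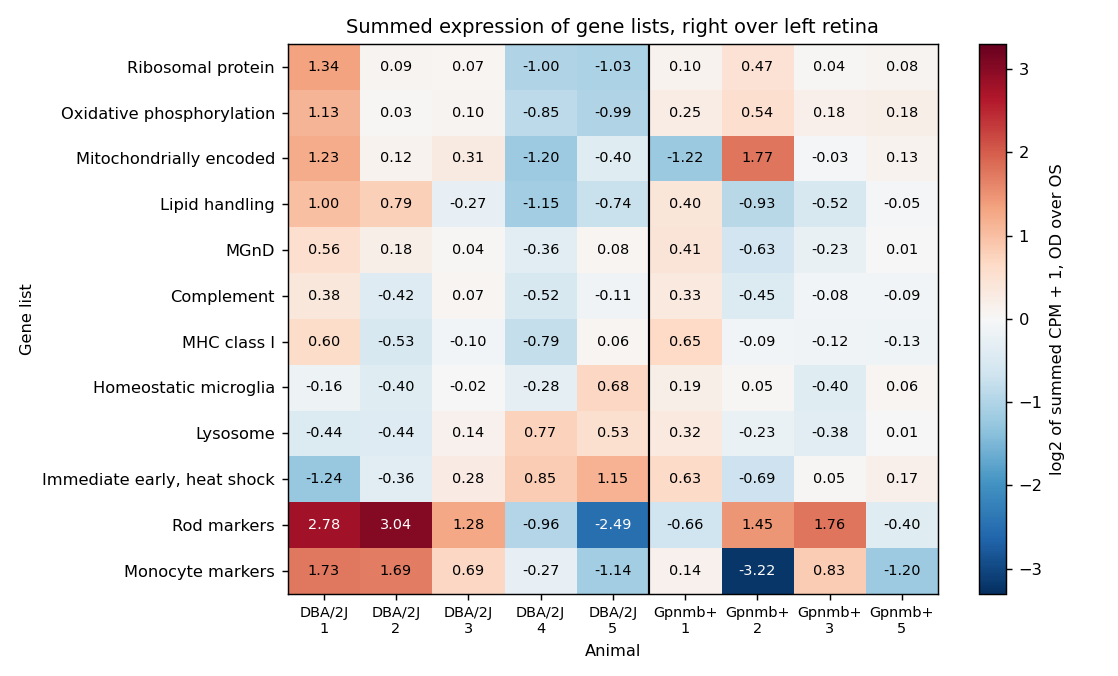
Log2 ratio of summed CPM + 1, OD over OS, for 12 gene lists (down) in each animal (across), with positive values in red. Ribosomal protein and oxidative phosphorylation genes are higher in OD of DBA/2J animal 1 and higher in OS of animals 4 and 5, with immediate early and lysosomal genes the other way; DBA/2J animals 2 and 3 are at most 0.10 in the ribosomal and oxidative phosphorylation lists, while animal 2 is at -0.44 for lysosomal genes, level with animal 1.

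Single genes of these lists had the same arrangement in animals 1, 4 and 5. The ribosomal protein gene Rpl32 was 464, 204.5, 137.5, 221 and 143 CPM in OD of DBA/2J animals 1 to 5, against 91.0, 193, 136, 545 and 303 CPM in OS. Jun, an immediate early transcription factor, was 1316, 2110, 2876, 2451 and 2414 CPM in OD, against 3258, 1506.5, 2375, 732 and 914 CPM in OS. The eye with more Rpl32 was the eye with less Jun in animals 1, 4 and 5. Tmem119, a membrane protein of homeostatic microglia, was 955, 1743, 3548, 2863 and 2230 CPM in OD, against 2697.5, 3446, 2582, 835 and 1468 CPM in OS, low in the eyes with more Rpl32 in animals 1, 4 and 5. In animal 2 Tmem119 lay farther apart than in animal 5, while Rpl32 was nearly level. The sum of the 29 homeostatic genes, by contrast, had log2 ratios of -0.16, -0.28 and 0.68 in these animals, and their gene-wise medians were -0.50, 0.27 and 0.90, so that sum and median differ in sign in animal 4. Ctsd, the lysosomal protease cathepsin D, was 3468, 9393, 9955, 7322 and 11219 CPM in OD, against 10517, 9528, 9132, 2863 and 5560.5 CPM in OS.

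Among genes that average log2 CPM 8 or more, those with the largest median gap between the eyes of DBA/2J animals included the adhesion molecule gene Nptn (2.05 log2 CPM), Dusp1 (1.92), Gpr34 (1.87), Ccl12 (1.73), Junb (1.69), Entpd1 (1.68) and Dusp6 (1.58). Dusp1 and Dusp6 are phosphatases that switch off MAP kinases, Junb is an immediate early transcription factor, and Entpd1 (CD39) degrades extracellular ATP. Dusp1 was 354, 1052, 1141, 1325 and 1780 CPM in OD of DBA/2J animals 1 to 5, against 1457, 811, 842, 397 and 353 CPM in OS. Junb was 685, 1754, 2720, 2036 and 3373 CPM in OD, against 3089, 2920, 2853, 576 and 1051 CPM in OS. Both genes were lower in OD of animal 1 and higher in OD of animals 4 and 5. The gap of Gpr34 between the eyes was 1.87, against 0.54 between DBA/2J animals, and 0.52 in Gpnmb+ eyes. Gpr34 was picked here for its large gap between DBA/2J eyes, which favours such a contrast, so nothing is read from it. In Gpnmb+ the largest gaps were those of Evi2a (1.86), the integrin gene Itgb5 (1.42) and Lamp2 (1.35), a lysosomal membrane protein. Lamp2 was 263, 164, 106 and 563 CPM in OD of Gpnmb+ animals 1, 2, 3 and 5, against 282, 504, 537 and 634 CPM in OS.

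Library measures moved along with this arrangement in part. The mitochondrial share of counts was 2.98% in OD and 1.43% in OS of animal 1, 1.77% and 3.34% in animal 4, and 1.58% and 2.34% in animal 5, higher in each case in the eye with more ribosomal protein expression. The total was 4983359 counts in OD and 9144724 in OS of animal 1, 6200947 and 1706745 in animal 4, and 12499967 and 15825437 in animal 5, so the eye with more ribosomal protein expression was the shallower eye in animals 1 and 4 and the deeper one in animal 5. The part of these measures in the result was not tested.

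Signal of other cells also moved with the eyes. Summed over 17 rod photoreceptor genes, expression was 6810, 3294, 2079, 539 and 795 CPM in OD of DBA/2J animals 1 to 5, against 988, 401, 857, 1051 and 4465 CPM in OS. In Gpnmb+ animals 1, 2, 3 and 5 it was 366, 25571, 3154 and 559 CPM in OD, against 577, 9337, 928 and 737 CPM in OS. Rod signal was higher in the eye with more ribosomal protein expression in animals 1, 4 and 5, but animal 2 had the largest rod ratio of the DBA/2J animals (log2 3.04) with level ribosomal protein expression (log2 0.09). Markers of monocytes summed to 349 to 2337 CPM in DBA/2J OD retinas and 391 to 868 CPM in DBA/2J OS retinas, nearly all of it from Lyz2, lysozyme, which microglia can also express. Border macrophage markers, Mrc1 among them, reached 435 CPM in OD and 26.0 CPM in OS of animal 1, 306 and 22.4 CPM in animal 2, 0 and 74.4 CPM in animal 4, and 27.5 and 153 CPM in animal 5. Ganglion cell markers were at most 11.1 CPM in DBA/2J retinas, and neutrophil markers were at 0 in 17 of 18 retinas. The part of these cells in the differences between eyes was not tested.

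The labels grade the eyes of 2 DBA/2J animals differently, animals 1 and 5, and in both the more advanced eye is OS, so grade and side cannot be told apart. Setting the more advanced eye against the less advanced one, edgeR called 0 genes and listed 82 (0.86%) at an unadjusted p under 0.05, 71 (0.744%) higher and 11 (0.115%) lower in the more advanced eye, against 52 called by DESeq2 and 0 by limma voom. Apoe was 15550 CPM in the severe and 32974 CPM in the moderate eye of animal 1, and 8056 CPM in the moderate and 4031 CPM in the mild eye of animal 5. P2ry12 was 2992 CPM in the severe and 958 CPM in the moderate eye of animal 1, and 894 CPM in the moderate and 2985 CPM in the mild eye of animal 5. The more advanced eye therefore had less Apoe and more P2ry12 in animal 1, and more Apoe and less P2ry12 in animal 5. The difference between animals with unlike and like grades had 0 edgeR calls, 68 genes (0.713%) at an unadjusted p under 0.05, 55 (0.577%) positive and 13 (0.136%) negative, 55 DESeq2 calls and 0 by limma voom. The mean eye distance of animals 1 and 5 minus that of animals 2, 3 and 4 was 0.220 (two-sided exact permutation, p = 0.300, where the smallest possible is 0.1). Over all genes past the filter this difference was 0.00348 (two-sided exact permutation, p = 1), and without animal 1 it was 0.134.

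The moderate eye, OD in animal 1 and OS in animal 5, was the eye with more Apoe and less P2ry12 in both. This comparison, the moderate eye against the other eye of animals 1 and 5, was added after those values were seen, so it describes them and is no independent support. The list values below come from the same eye differences of animals 1 and 5 as those given above, so they restate them. Genes of a list are not replicates of each other. edgeR called 0 genes and listed 135 (1.42%) at an unadjusted p under 0.05, 82 (0.86%) higher and 53 (0.556%) lower in the moderate eye, DESeq2 called 76, and limma voom called 2, Apoe (higher) and Ctsd (lower). Of the 36 ribosomal protein genes 36 had a positive log2 change, with a median of 1.38 and 6 past an unadjusted p of 0.05, beside a median of 0.00 over all genes. Oxidative phosphorylation genes were positive in 35 of 36 with a median of 1.43, and rod genes in 16 of 16 with a median of 2.92. Homeostatic microglia genes were negative in 26 of 29 with a median of -0.69, and immediate early and heat shock genes in 21 of 24 with a median of -1.29. With RLE scaling, which brought the median of all genes to 0.08, the ribosomal and homeostatic medians were 1.46 and -0.61, and no median of these lists changed sign. The 13 proliferation genes tested were also positive in 13 of 13, with 5 past an unadjusted p of 0.05; their sum was 1557 CPM in the moderate and 295.5 CPM in the severe eye of animal 1, and 1020 CPM in the moderate and 484 CPM in the mild eye of animal 5. Border macrophage markers were positive in 4 of 4 genes tested, with a median of 5.57 and 1 past an unadjusted p of 0.05; the part of these cells and of the rods in the microglial values was not tested. MGnD genes were mixed, 18 positive and 11 negative, with a median of 0.57.

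Among single genes the microglial receptor gene Gpr34 was 208.5 CPM in the moderate and 1638 CPM in the severe eye of animal 1, and 206 CPM in the moderate and 1544.5 CPM in the mild eye of animal 5. Its log2 change was -2.89 ± 0.65 (SE, 2 animals), and its adjusted p was 1 by edgeR's quasi-likelihood test. Ccl12, a chemokine gene, was 2054 CPM in the moderate and 650 CPM in the severe eye of animal 1, and 2091 CPM in the moderate and 370 CPM in the mild eye of animal 5 (log2 2.13 ± 0.62). P2ry12 had a log2 change of -1.64 ± 0.47, and Apoe 1.10 ± 0.74. The eyes of animal 4, both graded mild, also lay apart in these genes: Gpr34 was 1337 CPM in OD and 445 CPM in OS, and Ccl12 was 373 CPM in OD and 1509 CPM in OS. The OS retina of animal 4 is the library with 1706745 counts.

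Genes that differed between animals beyond the eyes were sought with an F test that uses the eyes as the spread. In DBA/2J edgeR called 0 genes and listed 37 (0.388%) at an unadjusted p under 0.05. Xist had the smallest adjusted p, 0.346 by edgeR's quasi-likelihood test, and 4.95e-05 by the same test without Gpnmb+ animal 5, whose eyes are unlike in Xist and share the estimate of the spread. DESeq2 called 2 genes, Xist and its antisense partner Tsix, whose reads cannot be told apart without strand, and limma voom called 3, Xist, CT010467.1 and the protease inhibitor gene Cst3. Cst3 was 44164, 23001, 31709, 44171 and 25370 CPM in OD of animals 1 to 5, against 28291, 29378, 28626.5, 77184 and 19461 CPM in OS. In Gpnmb+ edgeR called 26 genes (0.273%), with 1511 (15.8%) at an unadjusted p under 0.05, 1471 called by DESeq2 and 821 by limma voom.

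The 26 genes called between Gpnmb+ animals mostly followed animal 2, the shallowest. Both of its eyes had 0 counts in 21 of them, beside 30.8% of all genes tested. Stard3, a sterol carrier of late endosomes, was 38.4, 0, 108 and 214 CPM in OD of animals 1, 2, 3 and 5, against 25.5, 0, 103 and 182 CPM in OS (adjusted p = 0.0393 by edgeR's quasi-likelihood test). Rnf13, a ubiquitin ligase gene, was 306, 0, 431 and 351 CPM in OD, against 273.5, 1.34, 336 and 234 CPM in OS (adjusted p = 0.0393 by the same test). Pdcd1, the immune receptor PD-1, was 167, 0, 197 and 157.5 CPM in OD, against 36.3, 0, 176 and 301.5 CPM in OS. The count was 0 with RLE scaling, 1 (Tlr13) without animals under 20% of the median total, 11 without Gpnmb+ animal 2, 107 without animal 1 and 66 without animal 3, and 0 without any 1 of the DBA/2J animals.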

How the data were processed

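Microglia RNA of 18 retinas was used, 1 library each, from tables with expected counts, TPM and FPKM per gene that the authors deposited for each retina. Of these only the expected counts were used, rounded to whole numbers; 3.73% to 24.3% of values per retina were not whole. The submitters' processing notes name mm10, Salmon 1.4.0, R 4.0.3 and DESeq2 1.30.1, with no role for each. A table of the whole series, with 24 columns of per-sample values, was not used. Of 47729 gene IDs 47224 have a symbol, and coordinates are GRCm38.

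edgeR 4.0.16 (R 4.3.3) fitted all 18 retinas with TMM scaling, the animal as a block and the eye by genotype. It tested with its quasi-likelihood test and Benjamini-Hochberg adjustment at 0.05. Its filter on low counts asked for 15 counts in all. It also asked for the CPM that equals 10 counts at the median library size, in at least 9 retinas, the number per eye. Genes found in few retinas were thus not tested. limma 3.58.1 tested the size of eye differences; DESeq2 1.42.0 and limma voom were alternatives. Distances used log2 CPM with a prior count of 2. Alternatives also covered RLE scaling, filters, the eye or replicate block, shallow animals left out, and each animal left out. Scripts were tested on simulated data. Labels do not say whether animals came from separate litters, so p-values refer to these animals only. In the paired tests they rest on how the eye difference varies over the animals. In the tests between animals they rest on the spread between eyes. Permutation p-values rest on pairing the eyes anew or on regrouping the animals.

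Eyes are paired because the titles name the same animal; deviations of fellow eyes over 1295 genes correlated at -0.26 to 0.23 in DBA/2J and 0.01 to 0.19 in Gpnmb+ animals. Retinas were distinct: over 73 pairs, chi-square divided by its degrees of freedom was at least 88.5. A count of 0 allows up to 3 counts, 3.07 CPM in the shallowest retina; such limits cover counting error only. Members and lists were chosen with earlier results of these data known. Named genes are a fixed set of microglial, stress, rod and sex-linked genes, plus the called genes with the smallest p (5 per direction where none was called), up to 4 per list and the 8 with the largest gaps per genotype; CT010467.1 and genes of calls of 5 or fewer were chosen after their values were seen. Some genes of this rule are not reported here.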

Additional observations from a re-analysis of the deposited data

Results flagged for a closer look

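In each of 50 sets of values within a genotype, the highest and lowest animal were checked against the others. Most sets were eye differences of a named gene. The rest were the eye distance and the share of genes found in 1 eye, which had no animal flagged. An animal lay far from the others in 4 sets, where chance gives about 1 in 20. Values are log2 CPM, OD minus OS. Jun was -1.37 in Gpnmb+ animal 2, where OD had 3652 CPM and OS 6682 CPM, while the other Gpnmb+ animals had higher or level OD values. H2-D1 was -2.59 in the same animal, with 323 CPM in OD and 1384 CPM in OS. Cd63, a tetraspanin of lysosomes, was -7.93 there, with 0 in OD and 58.3 CPM in OS. The OD retina of Gpnmb+ animal 2 is the library with 977873 counts. Fcrls was 8.86 in DBA/2J animal 2, with 93.9 CPM in OD and 0 in OS, where the total was 6203770 counts. What the depth had to do with these values was not tested.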

How the results depend on the processing

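In the 6 comparisons of eyes the fit with no replicate block, that is without pairing by animal, also called 0 genes. DESeq2 called 162 genes for OD against OS in 9 animals, 93 in DBA/2J, 614 in Gpnmb+, 213 for the interaction, 52 for the more against the less advanced eye, 55 for unlike minus like grades, 2 and 1471 between DBA/2J and Gpnmb+ animals, and 76 for the moderate eye; limma voom called 3, 821 and 2 in the last 3 of these. With no filter 1 gene (CT010467.1) was called in Gpnmb+ eyes, the interaction and unlike minus like grades, and 8 and 178 between DBA/2J and Gpnmb+ animals. Without animals under 10000 genes 1 gene (Xist) was called in Gpnmb+ eyes and the interaction. Between Gpnmb+ animals 93 were called with no eye term, 0 with RLE scaling, 1 without animals of low total, and 0 to 107 with an animal left out; between DBA/2J animals 0 to 1, the 1 without Gpnmb+ animal 5. Sizes gave 0 to 20, the 20 without Gpnmb+ animal 5. Causes were not tested.

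The DBA/2J distance ratio was 0.940 (without animal 1) to 1.06 with an animal left out, and 0.955 against the same eye of other animals. The Gpnmb+ ratio was 0.806 without the animal of low total and 0.811 to 0.900 with an animal left out. It depended on the genes and measure used: 0.620 over all genes past the filter, 0.724 at 8 log2 CPM and 0.7955 by Spearman correlation. The DBA/2J ratio was 1.01, 1.07 and 1.02 in these settings. The joint ratio was 0.910 (without DBA/2J animal 1) to 0.965 with an animal left out, and 0.912 against the same eye of other animals. Over all genes past the filter it was 0.816 (one-sided exact permutation, p = 0.0573), and at 8 log2 CPM 0.897. The genotype difference turned to 0.0933 for genes of at least 8 log2 CPM, 0.0668 without animals of low total, 0.319 without animals under 10000 genes and ran over -0.447 to 0.0850 with an animal left out, highest without Gpnmb+ animal 2. The variance share in DBA/2J was -0.0634 without the animal of low total and -0.0758 to 0.0830 with an animal left out. In Gpnmb+ it was 0.203 over all genes, 0.341 at 8 log2 CPM, 0.0722 with RLE scaling, 0.167 without the animal of low total, and 0.0816 to 0.174 with an animal left out. Depth limits low genes most: a shallow retina can read 0 where its fellow does not.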
